A study of Arabidopsis thaliana with 6 samples.

Results

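The genes described here are Arabidopsis thaliana glucosidases, galactosidases and serine carboxypeptidase-like proteins, taken as every gene whose array symbol begins with BGLU, BGAL, BXL or SCPL followed by a number. The rule found 32 genes of the 8854 named by single-gene probe sets, namely 13 BGLU genes, 1 BGAL gene and 18 SCPL genes, and 0 BXL genes. RefSeq lists 47 BGLU, 17 BGAL, 4 BXL and 51 SCPL genes, so the members stand for part of the BGLU, BGAL and SCPL families. Of the remaining genes PYK10, a BGLU gene under another symbol, is described beside the members, and the others were not analysed here. Each member had a single probe set, all 32 of the plain type that carries no mark for cross-hybridization, so no choice between probe sets was needed.

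The series asks how glycerol-3-phosphate (G3P), a phosphorylated intermediate of lipid and sugar metabolism, alters transcripts in leaves distant from the one that received it. Both groups were untransformed plants of the Columbia ecotype (Col-0), 3 to 4 weeks old, grown in a chamber with 14 h of light a day, a humidity of 65% and a temperature of 22 degrees C. In the mock group a primary leaf was infiltrated with exudate and MgCl2, and in the G3P group with exudate, MgCl2 and G3P; the plants the exudate came from are not described in the labels. Distal leaves were taken after 24 h, and 3 biological replicates a group, each from its own set of plants, were hybridized to 1 ATH1 array each.

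Beta-glucosidases of the BGLU family remove glucose from stored conjugates of hormones, phenolics and defence compounds, so that an inactive, soluble compound can be released where it is needed. Beta-galactosidases of the BGAL family trim galactose from cell wall polysaccharides and glycoproteins. Proteins of the SCPL family share the fold of peptidases that cut amino acids from the carboxyl end of a protein, and some of them instead transfer acyl groups from glucose esters in phenylpropanoid metabolism. Transcript levels do not measure the activity of these enzymes.

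The arrays held 16129 probe sets, with median signals between 291 and 338. Values below are log2(signal + 16) unless said otherwise, a scale that cannot go below 4 and that understates the change of dim probe sets. Signals of different probe sets depend on the probes and are not compared between genes. Of the leaf and chloroplast markers 8 of 15 had a named probe set, with mock means from 9.31 (LHCB4.3) to 14.68 (LHCB4.1). Of the root markers 1 of 9 had one, the ER-body glucosidase PYK10, and of flower and seed markers 0 of 8. G3P replicate 3 stood apart. Its correlation with the other arrays, taken over probe sets that are not independent of each other, was 0.842 to 0.913, whereas each of the others reached at least 0.956 with its closest partner. Differences named below that it carried or turned are given with and without it. Precision is limited by the number of arrays.

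None of the 32 members passed the comparison of G3P with mock (limma, adjusted p from 0.912 to 0.9999), and over all probe sets 0.0% passed. Differences were split evenly, with 16 members positive and 16 negative and a median of -0.02, beside 46.5% positive and a median of -0.03 over all probe sets. They ran from -0.70 for SCPL25 to 1.11 for BGLU45. At an unadjusted p under 0.05 limma found 1 member, SCPL50, beside 3.08% of all probe sets. Non-overlapping groups were found for 1 member with higher signals in G3P leaves, SCPL20 (4.27% of all probe sets), and for 0 members with lower signals (4.37%).

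For 11 members (34.4%) the 95% interval lay within 1 unit of 0 on the log2(signal + 16) scale, against 52.6% of all probe sets. For dim probe sets 1 unit is more than a 2-fold change of the signal, so 2-fold was not excluded for every one of these. For the remaining 21 a change of 2-fold or more was not excluded. The intervals take no account of the number of probe sets. Members were often dim, with 13 of the 32 among the dimmest 25% of probe sets, 7 of them BGLU, 5 SCPL and the BGAL gene. The study's own measure, the ratio of median signals without a pseudocount, was at least 2 for 2 members (2.54% of all probe sets) and at most 0.5 for 2 members (4.65%). These were SCPL33 at 2.82 and BGLU27 at 2.30, and BGLU46 at 0.421 and SCPL50 at 0.473, of which SCPL50 alone was not among the dimmest 25% of probe sets.

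**Figure D1:**
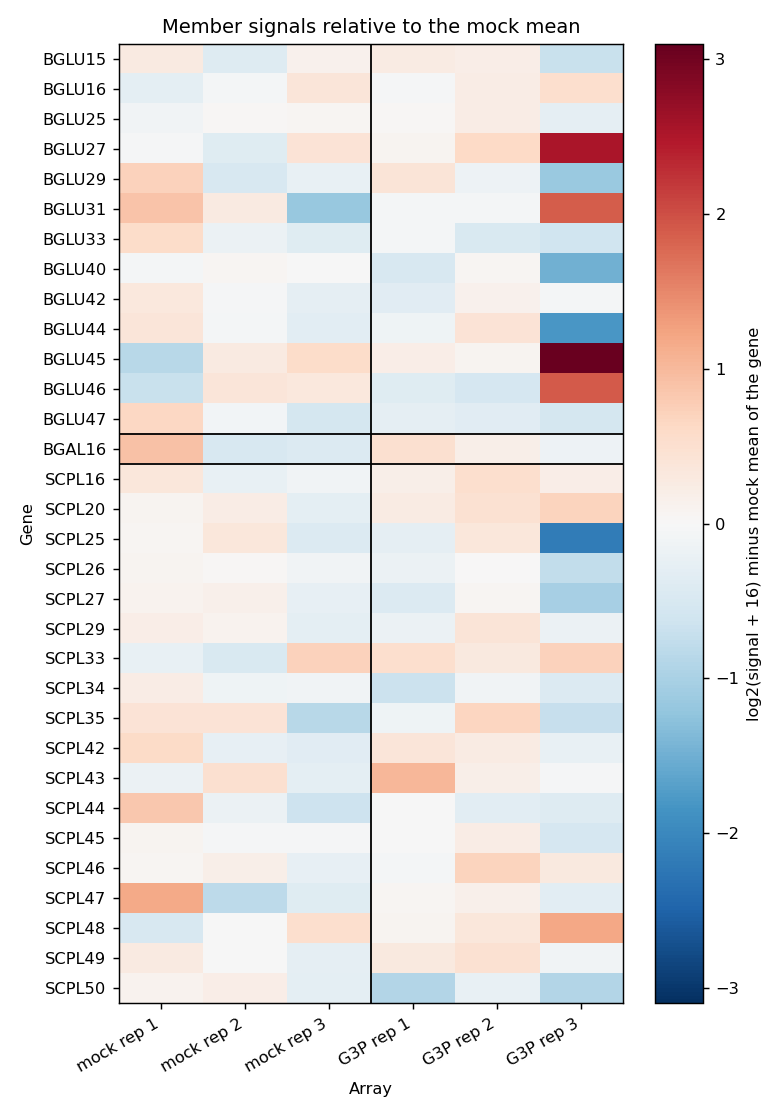
Signals of the 32 members (rows, by family) on the 6 arrays (columns), as log2(signal + 16) minus the mock mean of the gene; red is higher and blue lower than that mean. The strongest colours lie in the column of G3P replicate 3, where BGLU45 is red and SCPL25 and BGLU44 are blue.

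The plot of member signals by array shows no row in which the G3P columns are all strongly coloured alike. In the BGLU family the median SD between arrays was 0.39 in mock and 0.78 in G3P leaves. In the SCPL family these medians were 0.29 and 0.36, close to the 0.30 and 0.37 over all probe sets. The gap between G3P replicates 1 and 2 had a median size of 0.27 in the BGLU family and 0.35 over all probe sets. Within that family G3P replicate 3 held the highest signal of 5 of the 13 BGLU genes and the lowest of 6. Over all probe sets the same array was the highest for 24.5% and the lowest for 28.0%. Mock replicate 1 was the highest or lowest array for 8 of the 13 BGLU genes, beside 44.6% of all probe sets.

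**Figure D2:**
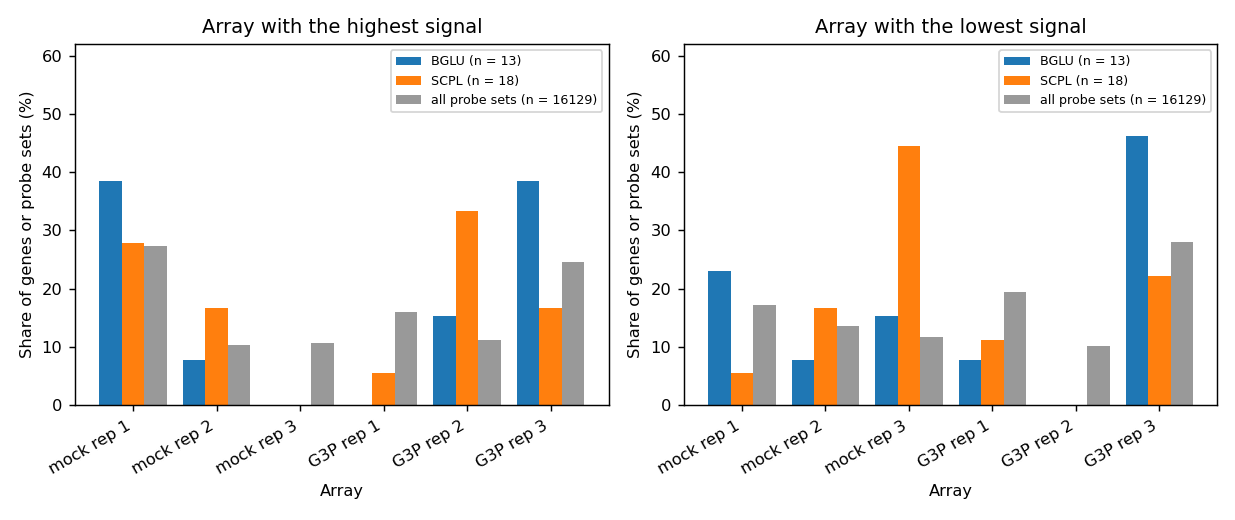
Share of BGLU genes (n = 13), SCPL genes (n = 18) and all probe sets (n = 16129) whose highest signal (left) or lowest signal (right) was on each array. G3P replicate 3 holds the highest or lowest signal of 11 BGLU genes and mock replicate 1 that of 8. Mock replicate 3 holds the lowest signal of 8 SCPL genes and the highest signal of none.

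Members of the SCPL family were distributed differently among the arrays. G3P replicate 2 held the highest signal of 6 of 18 SCPL genes, beside 11.3% of all probe sets, and mock replicate 3 the lowest of 8, beside 11.7%. Neither share was tested, since genes of a family are not replicates.

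Signals over 1 log2 unit above all other arrays occurred on G3P replicate 3 for 3 members (3.78% of all probe sets), BGLU27, BGLU45 and BGLU46, and signals over 1 unit below for 2 members (3.81%), BGLU44 and SCPL25. Just short of that limit was BGLU31, at 7.41 against at most 6.43 elsewhere. On other arrays the same limit was passed by BGLU31, low on mock replicate 3, and by SCPL47, high on mock replicate 1.

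BGLU45 (AT1G61810) and BGLU46 (AT1G61820) encode glucosidases that release monolignols, the alcohols from which lignin is built, from their glucosides. The genes are neighbours on chromosome 1 with 0 protein-coding genes between them. BGLU45 had 4.64, 5.76 and 6.07 on mock replicates 1 to 3 and 5.70, 5.56 and 8.54 on G3P replicates 1 to 3. BGLU46 had 4.52, 5.60 and 5.53 in mock and 4.85, 4.70 and 7.11 in G3P leaves. Both genes were thus lowest on mock replicate 1 and highest on G3P replicate 3, and G3P replicates 1 and 2 lay within the mock range. On the linear scale BGLU45 had a signal of 356 on G3P replicate 3 against 8.87 to 51.1 on the other 5 arrays.

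The difference of BGLU45 was 1.11 ± 0.81 (SE, unadjusted p = 0.209 in limma) and 0.14 ± 0.53 without G3P replicate 3. For BGLU46 it was 0.34 ± 0.70 (limma unadjusted p = 0.644), and -0.44 ± 0.54 without that array, so its direction turned. BGLU47 (AT4G21760), which carries the next number, had 7.15, 6.43 and 5.96 in mock and 6.24, 6.16 and 5.96 in G3P leaves, with no high value on G3P replicate 3 (6.51 ± 0.60 and 6.12 ± 0.15, SD, n = 3 each).

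Counterparts of these glucosidases were in the phenylpropanoid, sinapate and coumarin list, of which 9 of 43 genes had a named probe set. Among these genes 6 had a positive and 3 a negative difference (median 0.16, or -0.0096 without G3P replicate 3), and 0 passed the test over all probe sets. UGT72E2, an enzyme that puts glucose on monolignols, had 7.31, 6.38 and 6.65 in mock and 5.71, 6.09 and 5.95 in G3P leaves. All G3P arrays lay below all mock arrays for this gene, as they did for 4.37% of all probe sets. The difference was -0.86 ± 0.34 (SE, unadjusted p = 0.037, adjusted p = 0.912 in limma) and -0.88 without G3P replicate 3. UGT72E1 of the same group had a difference of 0.48 ± 0.28. REF1 (ALDH2C4), which oxidizes sinapaldehyde and coniferaldehyde, had one of 0.25 ± 0.19 with non-overlapping groups (higher for 4.27% of all probe sets). Without G3P replicate 3 these differences were 0.34 and 0.13. CCOAMT (AT1G67980), a caffeoyl-CoA methyltransferase named after its values were seen, had 9.63 on G3P replicate 3, beside a mock mean of 5.78 and a difference of -0.10 without that array.

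BGLU27 (AT3G60120) and BGLU16 (AT3G60130) are a further pair of neighbours. BGLU27 had 4.83, 4.50 and 5.28 in mock and 4.95, 5.48 and 7.39 in G3P leaves, with a mock mean of 4.87 near the lowest value of the scale. BGLU16 had 9.90, 10.14 and 10.59 in mock and 10.16, 10.43 and 10.72 in G3P leaves. Both were highest on G3P replicate 3, but BGLU16 exceeded its next array by little (10.72 against 10.59) and BGLU27 by much (7.39 against 5.48). The difference of BGLU27 was 1.07 ± 0.65 (limma unadjusted p = 0.139), and 0.35 ± 0.52 without G3P replicate 3. That of BGLU16 was 0.23 ± 0.25, and 0.09 without it.

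BGLU15 (AT2G44450), which acts on flavonol glycosides, lies near BGLU29 (AT2G44470), with 1 gene between them. The means of BGLU15 were 6.35 ± 0.35 (mock) and 6.28 ± 0.54 (G3P; SD, n = 3 each), and those of BGLU29 were 5.41 ± 0.64 and 5.10 ± 0.79. Both were highest on mock replicate 1 and lowest on G3P replicate 3, at 5.66 and 4.25. Their differences of -0.07 and -0.31 became 0.24 and 0.11 without G3P replicate 3.

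BGLU31 (AT5G24540) was the most scattered BGLU gene when G3P replicate 3 was left aside, with a range of 2.05 over the other 5 arrays. It had 6.43, 5.83 and 4.38 in mock and 5.49, 5.48 and 7.41 in G3P leaves. The difference of 0.58 ± 0.70 became -0.06 when G3P replicate 3 was left out and 1.02 when mock replicate 1 was.

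**Figure D3:**
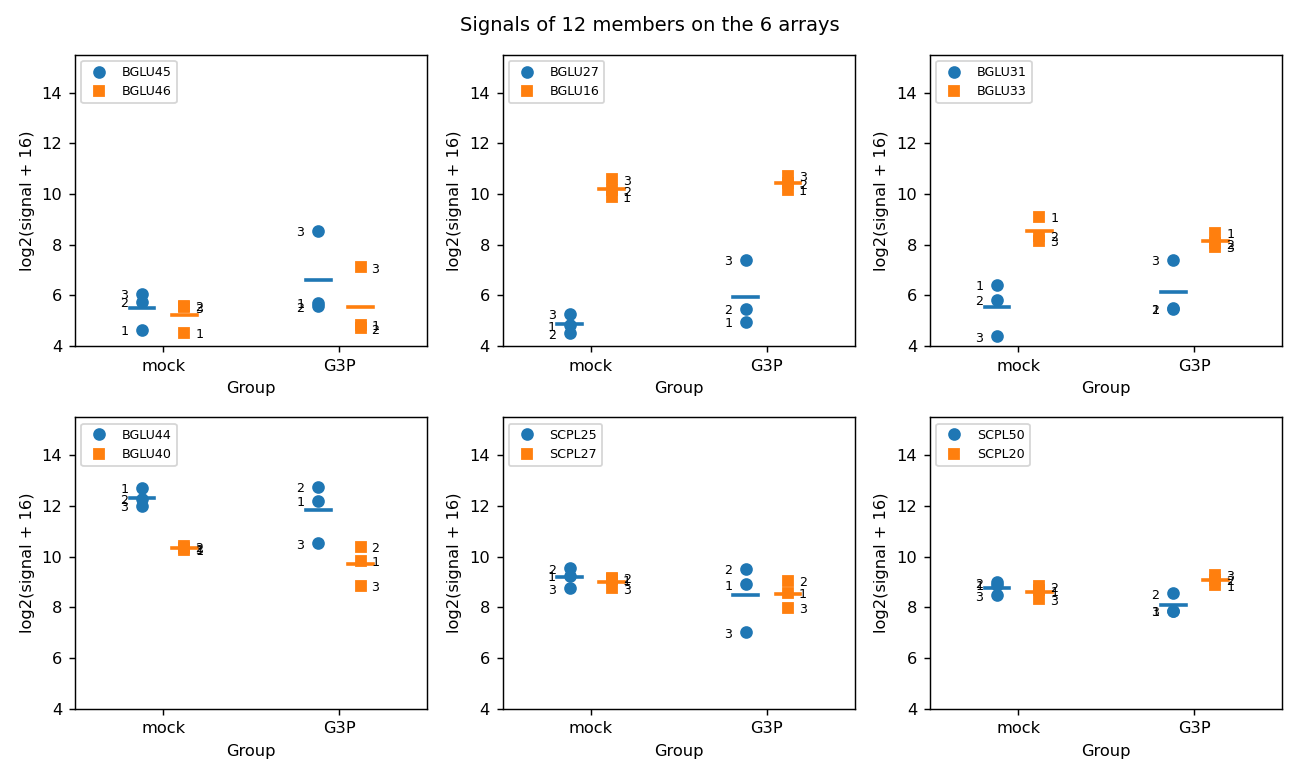
Signals of 12 members, 2 a panel, as log2(signal + 16) by group; each point is an array labelled with its replicate number and each bar the mean of 3. G3P replicate 3 is the highest point for BGLU45 (8.54), BGLU46 (7.11), BGLU27 (7.39) and BGLU31 (7.41) and the lowest for BGLU44 (10.53), BGLU40 (8.85), SCPL25 (7.02) and SCPL27 (7.99).

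BGLU33 (AT2G32860), also known as BG2, a vacuolar enzyme that frees abscisic acid from its glucose ester, had 9.11, 8.35 and 8.17 in mock and 8.47, 8.06 and 7.92 in G3P leaves. The groups overlapped, and the difference of -0.39 ± 0.31 (limma unadjusted p = 0.243) was -0.11 without mock replicate 1 and -0.58 without mock replicate 3. The enzymes of the opposite step, UGT71B6 and UGT71C5, which attach glucose to abscisic acid, had differences of 0.49 ± 0.60 and -0.21 ± 0.25, the latter -0.04 without G3P replicate 3. UGT71B6 was highest on G3P replicate 3 (7.74, next 6.70), and leaving this array out gave a difference of -0.07. In the list of abscisic acid supply and response genes 5 of 26 had a named probe set. Of these 1 was positive and 4 negative with a median of -0.26 (-0.04 without G3P replicate 3), and 0 passed. COR47, a dehydrin gene of that list, had -0.64 ± 0.24 with non-overlapping groups (lower for 4.37% of all probe sets), and -0.55 without G3P replicate 3. COR15B, a chloroplast protein gene of cold acclimation, had -0.61 ± 0.53, and 0.04 without that array.

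BGLU42 (AT5G36890), a glucosidase of root coumarin release and induced systemic resistance, had 9.24, 8.88 and 8.63 in mock and 8.57, 9.04 and 8.86 in G3P leaves. Its groups lay almost on top of each other, at 8.92 ± 0.30 and 8.82 ± 0.24 (SD, n = 3 each), with a 95% interval of the difference from -0.67 to 0.48. BGLU25 (AT3G03640) had 9.53 ± 0.10 and 9.53 ± 0.26, with an interval from -0.50 to 0.50, among the narrowest of the members.

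Relatives that act in the ER body, a compartment of Brassicaceae cells that stores glucosidases, were looked up in a list on glucosinolate hydrolysis. In that list 4 of 25 genes had a named probe set. Of these 3 had a positive and 1 a negative difference (median 0.14), a median that was -0.33 without G3P replicate 3, and 0 passed. PYK10 had 6.55, 4.62 and 5.94 in mock and 5.82, 5.06 and 6.76 in G3P leaves, with a difference of 0.18 ± 0.62 that turned to -0.26 without G3P replicate 3. NAI1, the transcription factor needed for ER bodies, had -0.16 ± 0.56, and -0.78 without it. JAL23, a lectin that binds the PYK10 complex, had 6.72, 7.03 and 7.22 in mock and 7.07, 8.80 and 9.98 in G3P leaves. Its groups overlapped on G3P replicate 1, and the difference was 1.63 ± 0.65 (SE, unadjusted p = 0.037, adjusted p = 0.912 in limma), or 0.94 without G3P replicate 3.

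Among the members that were low on G3P replicate 3, BGLU44 (AT3G18080), which also cleaves beta-mannosides, had 12.72, 12.28 and 12.01 in mock and 12.21, 12.75 and 10.53 in G3P leaves. G3P replicate 2 held the highest and G3P replicate 3 the lowest value of this gene. The difference was -0.50 ± 0.53 (limma unadjusted p = 0.366) and 0.14 ± 0.27 without G3P replicate 3. BGLU40 (AT1G26560) had a tight mock group of 10.28, 10.40 and 10.34, beside 9.84, 10.39 and 8.85 in G3P leaves. Its difference was -0.64 ± 0.37 (limma unadjusted p = 0.119), or -0.22 ± 0.24 without G3P replicate 3, and leaving out G3P replicate 2 gave -0.99.

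SCPL25 (AT3G02110) was the serine carboxypeptidase-like gene with the largest gap on that array, with 9.25, 9.54 and 8.76 in mock and 8.91, 9.52 and 7.02 in G3P leaves. The difference of -0.70 ± 0.59 (limma unadjusted p = 0.274) was 0.04 ± 0.31 without it. SCPL27 (AT3G07990) had 9.11, 9.16 and 8.76 in mock and 8.58, 9.06 and 7.99 in G3P leaves, a difference of -0.47 ± 0.31 (limma unadjusted p = 0.167) that was -0.19 without G3P replicate 3. SCPL26 (AT2G35780), with 10.82 ± 0.10 in mock leaves, also had its lowest value there, 10.05 against 10.63 to 10.90.

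Most markers of leaf cells were lowest on the same array. Exceptions were RCA and PRK, lowest on G3P replicate 1 (13.13 and 13.07), and LHCB4.3, lowest on mock replicate 3 (8.81). On G3P replicate 3 they had 13.36, 13.12 and 9.02. The summed signal of the 8 leaf and chloroplast markers was 131204 to 160998 in mock and 66708 to 132782 in G3P leaves, the lowest on G3P replicate 3. SWEET11, a sucrose exporter of the phloem and the only 1 of 6 vascular markers with a named probe set, was highest there, at 13.63 against 12.17 to 12.65. In whole leaves fewer cells of a type and less RNA per cell cannot be told apart. These shifts were read on 1 array that stood apart from the others, and their cause was not tested. Their part in the values of the glucosidase genes was not tested either.

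SCPL50 (AT1G15000) had the smallest p of the members. Its signals were 8.89, 8.99 and 8.47 in mock and 7.86, 8.55 and 7.86 in G3P leaves. The groups overlapped by a narrow margin, since G3P replicate 2 lay above mock replicate 3. The difference was -0.69 ± 0.28 (SE, unadjusted p = 0.040, adjusted p = 0.912 in limma). It kept its direction with each array left out, between -0.92 and -0.57, and was -0.57 with an unadjusted p of 0.093 in limma without G3P replicate 3. The unadjusted p stayed under 0.05 without G3P replicate 2 or mock replicate 3 and exceeded it without any of the other 4 arrays. On the linear scale the 3 mock arrays had 459, 491 and 339 and the G3P arrays 217, 360 and 217.

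SCPL20 (AT4G12910) was the member with separate groups, at 8.68, 8.83 and 8.31 in mock and 8.87, 9.08 and 9.29 in G3P leaves. The nearest arrays of the groups, 8.83 and 8.87, were close together. The difference was 0.48 ± 0.24 (limma unadjusted p = 0.080) and between 0.33 and 0.59 when any 1 array was left out. Without G3P replicate 3, SCPL49 also had separate groups, so that 2 members were higher and 0 lower (8.86% and 8.17% of all probe sets).

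SCPL34 (AT5G23210) had 9.07, 8.72 and 8.75 in mock and 8.19, 8.73 and 8.43 in G3P leaves, overlapping by the second decimal. Its difference of -0.40 ± 0.24 (limma unadjusted p = 0.136) was much the same without G3P replicate 3 (-0.39 ± 0.27). SCPL48 (AT3G45010) had 8.82, 9.32 and 9.84 in mock and 9.41, 9.67 and 10.52 in G3P leaves, a difference of 0.54 ± 0.37 that was 0.21 without G3P replicate 3. SCPL49 (AT3G10410), annotated as a carboxypeptidase Y, had 11.98, 11.70 and 11.43 in mock and 12.01, 12.17 and 11.60 in G3P leaves, with a difference of 0.22 ± 0.24, or 0.39 without G3P replicate 3.

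SCPL33 (AT3G17180) was near the lowest value of the scale in mock leaves, with 4.68, 4.45 and 5.63 beside 5.44, 5.24 and 5.64 in G3P leaves. The size of its difference, 0.52 ± 0.45, is uncertain for that reason. SCPL47 (AT5G22980) had 6.84 on mock replicate 1 and 4.84 to 5.82 on the other 5 arrays. Its difference of -0.04 ± 0.55 was 0.55 without mock replicate 1 and turned to 0.11 without G3P replicate 3.

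The other 8 SCPL genes not yet described had differences from -0.24 for SCPL44 to 0.39 for SCPL43, with unadjusted p-values that all exceeded the threshold. Without G3P replicate 3 the differences of SCPL45, SCPL29 and SCPL35 were 0.10, 0.10 and 0.27. SCPL45 (9.12 ± 0.06 in mock and 9.01 ± 0.38 in G3P leaves) and SCPL29 (9.91 ± 0.27 and 9.92 ± 0.33, SD, n = 3 each) had the smallest gaps between means beside SCPL35, whose arrays spread from 8.63 to 10.17. SCPL46 had a difference of 0.31 ± 0.26, SCPL16 one of 0.31 ± 0.31 and SCPL42 one of 0.13 ± 0.31 (0.31 without G3P replicate 3). SCPL43 had 0.61 without that array.

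BGAL16 (AT1G77410), the only BGAL gene with a named probe set, was dim, with 6.68, 5.28 and 5.36 in mock and 6.26, 5.95 and 5.62 in G3P leaves. The mock arrays enclosed all G3P arrays. The difference was 0.17 ± 0.46 (limma unadjusted p = 0.718), was 0.34 without G3P replicate 3 and turned to -0.07 without mock replicate 2. In the cell wall polysaccharide list 1 of 42 genes had a named probe set, XTH16, a xyloglucan-modifying enzyme gene. Its lowest value, 4.28, was on G3P replicate 3. Its difference was -0.28 ± 0.82, and turned to 0.69 without that array. Sugar starvation, a condition that induces some beta-glucosidase genes, was represented by 2 of 26 genes. AKINBETA1, a subunit of the energy-sensing kinase SnRK1, had -0.75 ± 0.26 with non-overlapping groups (lower for 4.37% of all probe sets). The transcription factor gene BZIP53 had -0.02 ± 0.22, and neither gene passed over all probe sets.

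**Figure D4:**
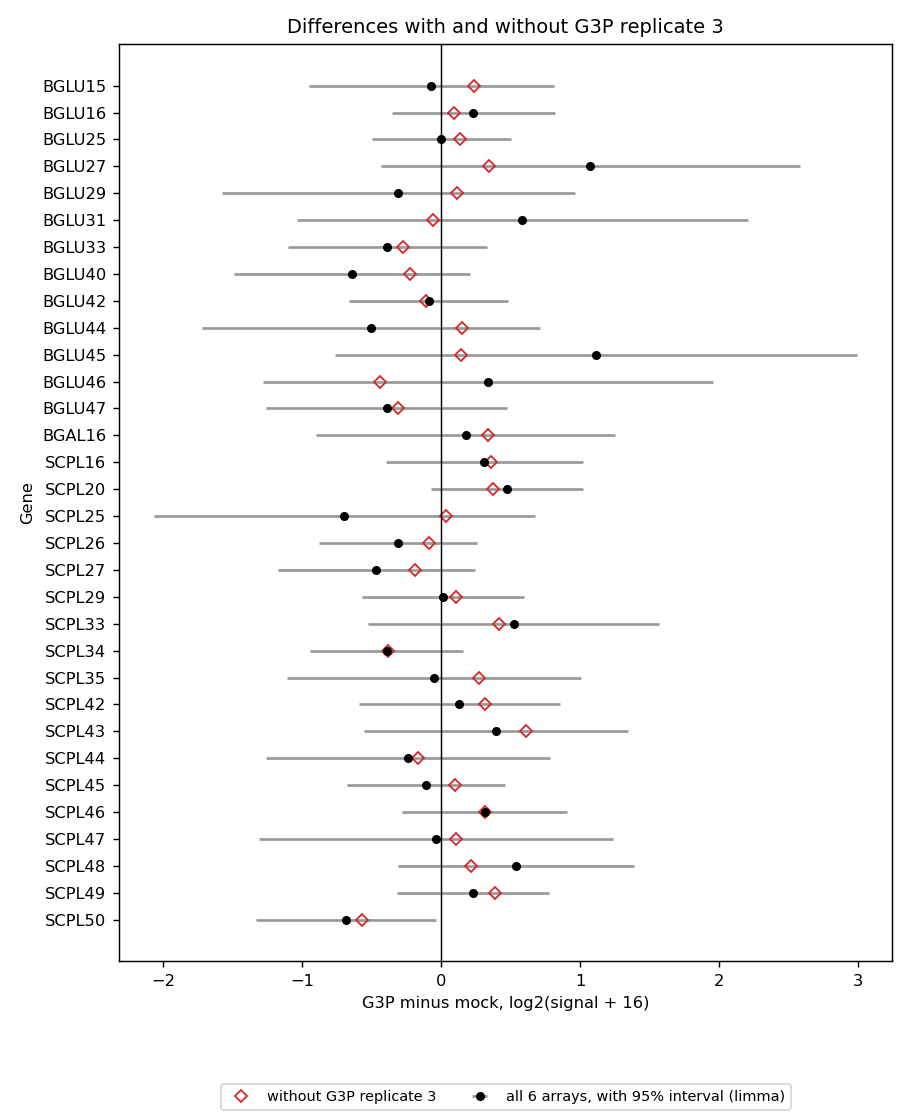
Difference between G3P and mock leaves of each member in log2(signal + 16), with the 95% interval from all 6 arrays (black points, grey bars) and the value without G3P replicate 3 (red diamonds). The red diamonds of BGLU45 (0.14), SCPL25 (0.04) and BGLU44 (0.14) lie near 0, while those of SCPL50, SCPL34 and SCPL20 stay close to the black points.

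The plot of differences shows how the families compared. The BGLU median was -0.07, with 6 genes positive and 7 negative, and the SCPL median was -0.02, with 9 positive and 9 negative. Without G3P replicate 3 these medians were 0.09 and 0.16, beside -0.01 over all probe sets. Then 21 of the 32 members (65.6%) were positive, against 48.2% of all probe sets. The sign of neither family median was stable. The BGLU median was -0.0075 after quantile normalization, -0.03 after median centring, 0.07 with array quality weights and 0.05 without mock replicate 1. Under the same 4 settings the SCPL median was 0.06, 0.03, 0.16 and 0.23. The median size of a difference, regardless of direction, dropped from 0.39 to 0.14 in the BGLU family when that array was left out, from 0.31 to 0.29 in the SCPL family and from 0.24 to 0.21 over all probe sets. Over the whole set, 15 of the 32 members changed direction when some single array was left out and 17 did not. Without G3P replicate 3, 0 members had an unadjusted p under 0.05 in limma (2.71% of all probe sets) and 0 passed the adjusted threshold.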

How the data were processed

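Distal leaf RNA, extracted with Trizol and biotin-labelled per the labels' protocols, was hybridized to 6 one-colour ATH1 arrays. Each deposited value is an intensity on a linear scale; these signals came from Affymetrix Expression Console 1.0, per the submitters' processing notes. Summarization, scaling and the selection of the 16129 probe sets are not given in the sources used. Trimmed means (2%) lay between 747 and 754, and 0 pairs of arrays were identical.

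Groups were taken from the sample labels. Intensities were used as log2(signal + 16) in limma (version 3.58.1, R 4.3.3), fitted to all arrays with a variance trend and without covariates; p-values were adjusted by Benjamini-Hochberg over all probe sets, with 0.05 as the threshold. A run of the fit on simulated data used independent normal noise. It held no array that stood apart as G3P replicate 3 did, so nothing is concluded from it here. The submitters' design describes a Wilcoxon test, which cannot go below an exact two-sided p of 0.1 with 3 arrays a group and was an alternative.

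The platform annotation gave 8950 probe sets 1 gene, 339 several and 6840 no entry; only the first were named. All 32 members matched RefSeq genes of assembly TAIR10.1, which gave locus tags and neighbours, and no coordinates are given because the array files name no build. Members, gene lists and alternatives were chosen with earlier results of these data known. Members were named with values on every array if their groups did not overlap, if they had 1 of the 4 smallest p-values of their family, if an array exceeded or undercut all others by over 1 log2 unit, or if a group mean lay within 1 unit of the lowest value of the scale; BGLU15, BGLU16, BGLU29, BGLU42, BGLU47, SCPL48, SCPL49 and other members outside this rule were added after their values were seen. From each list up to 3 genes with the smallest p were named, and UGT71C5 and CCOAMT were added after their values were seen.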

Additional observations from a re-analysis of the deposited data

How the results depend on the processing

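The counts of 0 members and 0 probe sets past the adjusted threshold held under all 14 other limma fits, 8 with all 6 arrays and 6 with single arrays left out, where the smallest adjusted p over all probe sets was 0.114. For the 15 members named by the rule no adjusted p was below 0.652. The Wilcoxon rank-sum test cannot give a call with these arrays. The count of members at an unadjusted p under 0.05 (1 in the main analysis, limma) was 2 with the replicate number as a block, SCPL48 being added, 0 with the rank-sum test, and between 0 and 3 when an array was dropped: 3 without G3P replicate 2 (BGLU40, SCPL27 and SCPL50) 1 without G3P replicate 1 (BGLU27 in place of SCPL50) and 0 without G3P replicate 3, mock replicate 1 or mock replicate 2. Over all probe sets the count of 496 became 1196 without G3P replicate 2, and leaving out mock replicate 2 or mock replicate 1 gave 282 and 233. Members with a positive difference, a count added after the data were seen, were 8 of the 19 left without the dimmest 25% of probe sets, and 12 to 21 of 32 with single arrays left out. The main analysis has no replicate block, since the labels do not tie equal numbers to the same plants. Deviations of same-numbered arrays correlated at 0.0061, -0.102 and 0.314, beside -0.368 to 0.451 for arrays of unlike number. The block added no other member, and over all probe sets the count of 496 became 685 with it. With single arrays left out, differences ran from -0.070 to 0.63 for BGAL16, -0.060 to 1.02 for BGLU31, -0.96 to 0.14 for BGLU44, -0.44 to 0.76 for BGLU46, -1.22 to 0.036 for SCPL25 and -0.45 to 0.55 for SCPL47, and none of the others among these 15 changed direction. With array quality weights the difference of BGLU46 was -0.27. That of SCPL47 was 0.39 with array weights, 0.077 with a pseudocount of 1, 0.11 after quantile normalization and 0.00033 after median centring. The cause was not tested. Both family medians stayed within 1 SD between arrays (0.18 for BGLU, 0.25 for SCPL) of their main values in all fits. These SDs exceeded the size of the medians, so this limit did not keep their sign from turning. No member had more than 1 probe set, so the alternative of using all probe sets of a member could not be run. Dim probe sets limit the size of the differences that can be read, 13 of the 32 members being among the dimmest 25%.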
